A study of Rattus norvegicus with 30 samples.

Results

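Laminins and integrins were followed in CD31-positive lung cells of wild-type rats. The members were chosen by name: every row of the count table named as a laminin alpha, beta or gamma chain, or as an integrin alpha or beta gene, was taken, and the integrin-binding proteins Itgb1bp1, Itgb1bp2 and Itgb3bp were left out. This gave 39 of 30562 rows, 11 for laminin chains and 28 for integrins. Itgad and Itgae have 2 rows each, kept under their identifiers, and reads could have been split between them. The rule also took Itgbl1, a soluble protein with integrin-beta-like repeats that is not a receptor subunit. Of the 39 rows, 36 passed the filter on low counts (10 laminin and 26 integrin rows). The laminin chain Lama1 (ENSRNOG00000017237) and 1 row each of Itgad (ENSRNOG00000068399) and Itgae (ENSRNOG00000070390) did not, and each stayed under 1 CPM in every library.

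Lung cells carrying CD31, which marks endothelium and also platelets and some leukocytes, were pulled out on magnetic microbeads 3 weeks after a sham operation or a Glenn operation, which joins a caval vein to the pulmonary artery. For each operation there were 3 diets, which differed in vitamin A: control, deficient and excess. With 5 libraries each, the 6 groups are sham control, Glenn control, sham deficient, Glenn deficient, sham excess and Glenn excess. Strain and age are not given in the sources used here. The labels do not say whether each library came from a separate animal, so p-values measure only the spread between these libraries. Each group held male and female libraries by the gene Ddx3y, so the spread covers more than a single animal, but part of it may be technical. The comparisons ask what the Glenn operation changed and whether dietary vitamin A altered it.

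Laminins are trimers of 1 alpha, 1 beta and 1 gamma chain that assemble into the sheet of the basement membrane, which lies under endothelium and epithelium and around mural cells. Integrins are receptors made of an alpha and a beta subunit; they bind laminins, collagens, fibronectin and other matrix or cell-surface ligands and link them to the cytoskeleton. In blood vessels the endothelial laminin alpha chains are Lama4 and Lama5, joined by a beta chain and Lamc1, and their main integrin receptors use Itga6 or Itga3 with Itgb1.

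Promoters are shown for 4 of the 5 members whose 15 Glenn libraries did not overlap the 15 sham libraries, as described below. They are Lama4, Lamc1 and Itga4, which rose, and Itga3, which fell. The remaining member, Itga9, rose and its promoter is not shown. Each line gives the 250 bases before the annotated start of the gene, read 5′ to 3′ along the gene, from RefSeq's GRCr8 annotation. The positions are chr20:43946648-43946897 (plus strand) for Lama4, chr13:68051987-68052236 (minus strand) for Lamc1, chr3:84569765-84570014 (plus strand) for Itga4 and chr10:80518902-80519151 (minus strand) for Itga3. Capitals mark matches, in either orientation, to the GC box (GGGCGG or CCGCCC) and to the CACCC box (CACCC or GGGTG), which share no base in these 4 sequences.
Lama4: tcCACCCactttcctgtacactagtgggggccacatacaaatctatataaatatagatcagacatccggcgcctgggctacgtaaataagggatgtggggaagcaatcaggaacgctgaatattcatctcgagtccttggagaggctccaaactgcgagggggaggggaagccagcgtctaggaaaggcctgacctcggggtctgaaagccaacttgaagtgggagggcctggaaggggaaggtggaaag
Lamc1: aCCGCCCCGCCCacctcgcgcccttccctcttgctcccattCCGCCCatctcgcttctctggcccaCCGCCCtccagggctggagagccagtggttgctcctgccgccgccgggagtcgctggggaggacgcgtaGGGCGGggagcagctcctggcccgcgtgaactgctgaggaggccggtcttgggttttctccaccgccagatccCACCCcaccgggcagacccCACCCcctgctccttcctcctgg
Itga4: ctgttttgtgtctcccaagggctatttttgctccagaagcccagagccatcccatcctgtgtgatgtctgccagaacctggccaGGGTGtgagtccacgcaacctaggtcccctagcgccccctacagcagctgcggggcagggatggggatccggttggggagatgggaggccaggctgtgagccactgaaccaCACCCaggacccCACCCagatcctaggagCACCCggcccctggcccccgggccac
Itga3: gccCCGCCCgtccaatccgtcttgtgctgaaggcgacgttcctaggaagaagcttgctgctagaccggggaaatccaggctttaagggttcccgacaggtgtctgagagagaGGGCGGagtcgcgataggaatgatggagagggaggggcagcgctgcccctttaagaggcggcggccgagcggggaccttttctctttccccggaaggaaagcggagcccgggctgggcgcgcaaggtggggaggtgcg

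The GC box occurred 5 times before Lamc1, 2 times before Itga3 and not in the windows of Lama4 and Itga4. The CACCC box occurred 1 time before Lama4, 2 times before Lamc1 and 4 times before Itga4, and was not found in the window of Itga3. The window of Itga9, not shown, held the GC box 2 times and the CACCC box 2 times. RefSeq's table matched 28 of the 37 member names. The CACCC letters stood in 18 of those 28 promoters and the GC-box letters in 14, against 49.2% and 30.5% of all 33469 promoters of that length. Among matched members called in the contrast averaged over diets, CACCC was found in 9 of 11 that rose and in 3 of 6 that fell, and the GC box in 4 of 11 and 4 of 6. The letters TGANTCA, the AP-1 motif, stood in 2 of the 28 promoters and in 6.34% of all. The ETS core CCGGAA or TTCCGG stood in 3 of the 28, against 12.6%, and TATAAA or TTTATA in 2, against 12.9%. These are matches of letters only.

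Libraries held 22029000 to 77647600 estimated counts (median 39968400), and the members took 0.298% to 0.486% of them. The endothelial genes Pecam1 (863 to 1731 CPM) and Cdh5 (1557 to 2926 CPM) were abundant in every library, and so was the type 2 alveolar cell gene Sftpc (15062 to 36185 CPM); CPM values are relative to the scaled library total. The pan-leukocyte gene Ptprc stayed between 0.569 and 18.9 CPM, and Cd3e, Marco, Nkg7 and S100a8 had means under 1 CPM. The whole list of 11 leukocyte markers summed to 13032 to 24466 CPM after sham and 8079 to 18885 CPM after Glenn surgery, above the sum of the 8 endothelial markers (6164 to 10585 CPM) in every library except Glenn deficient replicate 2. Nearly all of it was Lyz2 (8030.2 to 24447 CPM), a lysozyme gene of macrophages that rodent type 2 alveolar cells also express. The major histocompatibility gene RT1-CE16 split the libraries into 13 with 407 to 949 CPM and 17 with 21.9 to 44.4 CPM, and sham excess held none of the former. Library names fall into a series A of 22 and a series B of 8, and the latter is missing from sham control, Glenn control and sham excess. All series B libraries are RT1-CE16-high. On the deficient and excess diets the series A libraries are also the RT1-CE16-low ones, so fits of either hold the same libraries there. Sham control replicate 3 held the most Ptprc, and Glenn control replicate 1 lay far from its group in 5 members, so counts without these 2 libraries are given too.

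The Glenn operation changed 15 of the 36 tested members on the control diet (9 higher, 6 lower), where 24.9% of all genes tested changed. On the deficient diet it changed 18 (14 higher, 4 lower) against 27.4% of all genes, and on the excess diet 13 (9 higher, 4 lower) against 21.9%. Averaged over the diets, 22 members changed (15 higher, 7 lower) against 48.2% of all genes, of which 23.4% were higher and 24.7% lower. A change means an adjusted p under 0.05 in edgeR's quasi-likelihood test, adjusted over all 16171 genes. Without the 2 libraries named above the counts were 12, 18, 15 and 23, against 18.7%, 27.7%, 22.4% and 45.7% of all genes.

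Laminin chains and integrins gave different counts of rises and falls. Among the 10 laminin chains, 4 rose and 1 fell on the control diet, 6 rose and 1 fell on the deficient diet, and 4 rose and 1 fell on the excess diet. The 26 integrin rows gave 5 higher and 5 lower, 8 higher and 3 lower, and 5 higher and 3 lower in the same order. The median log2 change averaged over diets was 0.62 for laminins and -0.02 for integrins, beside -0.01 for all genes. No test compared the families with each other or with other genes. In sorted tissue cells, more cells of a type and more RNA per cell cannot be told apart.

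The same direction of change on all 3 diets was found for 9 members: Lama3, Lama4, Lamc1, Itga4, Itga7 and Itga9 rose, and Lama2, Itga3 and Itgb5 fell. This held for 13.5% of all genes tested. In the contrast of all 15 Glenn with all 15 sham libraries, 5 of the 36 members did not overlap, against 5.83% of all genes: Lama4, Lamc1, Itga4 and Itga9 were higher and Itga3 was lower. Within a diet, 11, 12 and 13 members did not overlap on the control, deficient and excess diets, against 17.2%, 19.6% and 16.3% of all genes. Another 14 tested members changed neither on any diet nor on average.

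**Figure D1:**
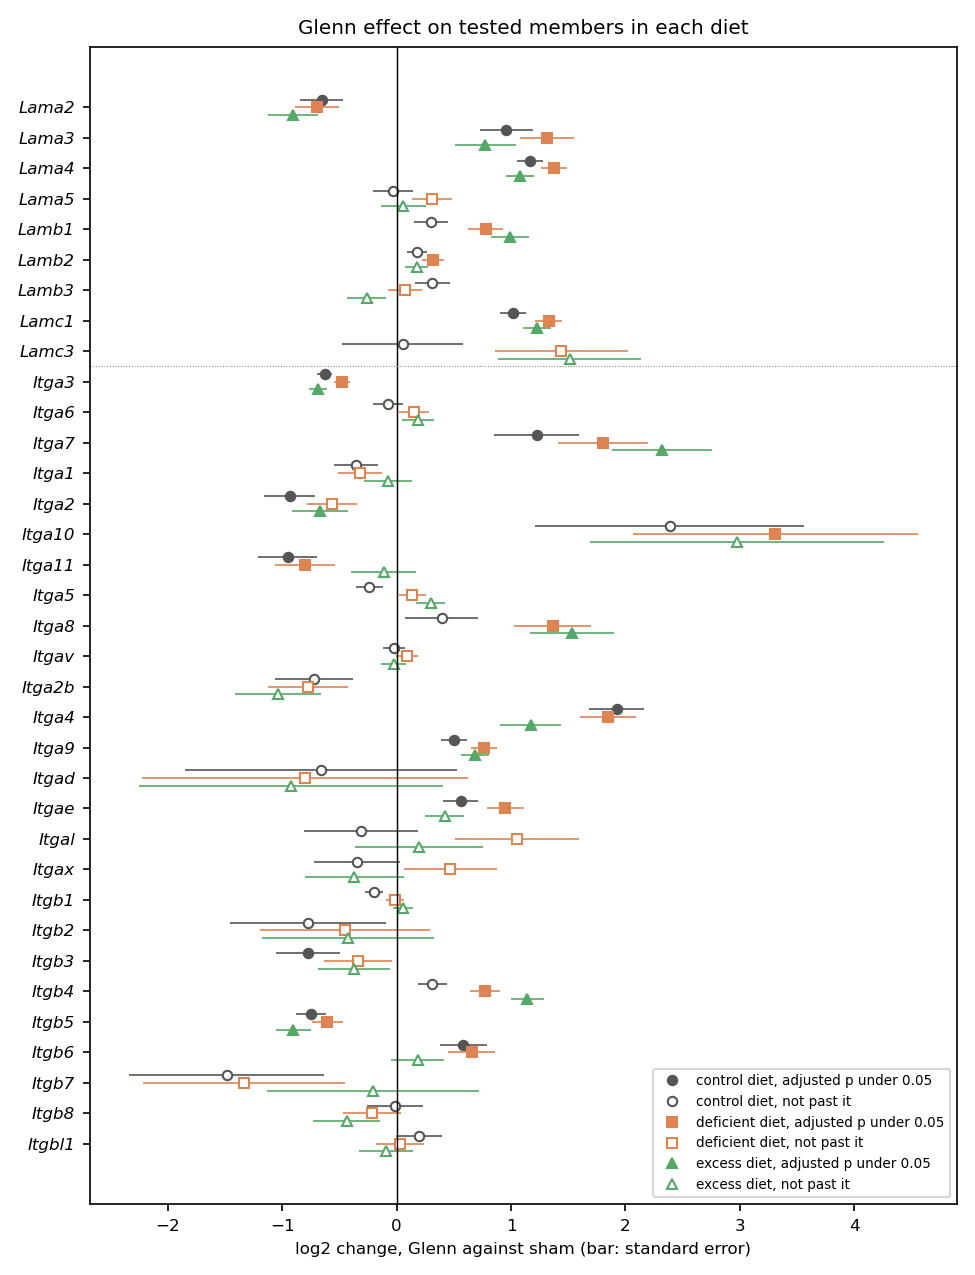
Fitted log2 change (x axis, Glenn against sham) of tested laminin and integrin rows (y axis) on the control, deficient and excess diets, with bars for the standard error and filled symbols for an adjusted p under 0.05. Lama4 and Lamc1 sit near 1 or above on all 3 diets, Itga3 lies between -0.69 and -0.48, and Itgb1 lies between -0.20 and 0.05.

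Lama4 (ENSRNOG00000000599), the alpha chain of the laminin around small vessels, had the smallest adjusted p of any member. Lama4 stood at 87.1, 85.9, 99.8, 109.6 and 113 CPM after sham surgery and at 254, 182, 198, 253 and 227 CPM after Glenn surgery on the control diet. Lama4 on the deficient diet stood at 95.9, 87.1, 107, 109 and 116 CPM after sham surgery and at 197, 267, 302, 259 and 272 CPM after Glenn surgery. Lama4 on the excess diet stood at 73.8, 95.9, 77.8, 99.6 and 88.3 CPM after sham surgery and at 166, 195, 213, 231 and 192 CPM after Glenn surgery. The lowest of the 15 Glenn libraries was above the highest of the 15 sham libraries. The rise was 2.31-fold averaged over diets (log2 change 1.21, SE 0.065, adjusted p 2.7e-15), with log2 changes of 1.17, 1.38 and 1.08 on the control, deficient and excess diets.

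Lama5 (ENSRNOG00000053691), the other endothelial alpha chain, did not pass the test on any diet. Its range was 48.01 to 102 (median 83.5) CPM after sham and 68.7 to 136 (median 83.1) CPM after Glenn surgery, and the averaged log2 change was 0.11 (SE 0.10, adjusted p 0.388). The highest value belonged to Glenn control replicate 1.

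Lama3 (ENSRNOG00000011300), the alpha chain of the epithelial laminin that anchors hemidesmosomes, rose on the 3 diets. Lama3 stood at 13.1, 14.8, 14.1, 16.9 and 19.3 CPM after sham surgery and at 52.1, 21.4, 27.6, 23.9 and 27.1 CPM after Glenn surgery on the control diet. Lama3 on the deficient diet stood at 9.90, 18.2, 15.03, 13.6 and 13.7 CPM after sham surgery and at 29.98, 28.4, 33.4, 44.8 and 32.7 CPM after Glenn surgery. Lama3 on the excess diet stood at 5.53, 7.30, 13.4, 14.9 and 11.8 CPM after sham surgery and at 15.1, 17.01, 23.98, 27.1 and 21.2 CPM after Glenn surgery. Groups did not overlap within a diet, although the highest sham control value lay above the lowest Glenn excess value. The averaged log2 change was 1.02 (SE 0.14, adjusted p 7.25e-07), and the within-diet changes were 0.96 (SE 0.23, adjusted p 0.00281), 1.31 (SE 0.24, adjusted p 0.000116) and 0.78 (SE 0.26, adjusted p 0.034). On the excess diet the call was lost without sham excess replicate 1 (0.61), sham excess replicate 2 (0.67), Glenn excess replicate 2 (0.82) or Glenn excess replicate 4 (0.72). It was lost there too within series A and among RT1-CE16-low libraries (0.62 in both), which are the same libraries on that diet. The call was also lost without the low-count filter (0.78) and when only the 2 groups were fitted (0.61).

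Lama2 (ENSRNOG00000011134), the alpha chain typical of muscle and mesenchymal basement membranes, went the other way. Lama2 stood at 12.9, 16.1, 13.1, 12.2 and 11.5 CPM after sham surgery and at 6.996, 8.13, 7.81, 10.2 and 8.68 CPM after Glenn surgery on the control diet. Lama2 on the deficient diet stood at 17.2, 13.9, 14.1, 15.1 and 14.2 CPM after sham surgery and at 7.69, 8.15, 12.1, 7.93 and 9.77 CPM after Glenn surgery. Lama2 on the excess diet stood at 13.3, 17.1, 12.5, 11.5 and 13.95 CPM after sham surgery and at 3.20, 9.29, 9.15, 6.95 and 9.36 CPM after Glenn surgery. Within each diet all Glenn values were below all sham values. The averaged fall was significant (log2 change -0.75, SE 0.11, adjusted p 2.26e-06). Without the 2 libraries named above, its control-diet change was -0.57 and did not pass the test.

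Among the beta chains, Lamb2 (ENSRNOG00000047768), a chain of mature vascular basement membranes, had the most estimated counts of the laminins, uncorrected for gene length. Lamb2 stood at 467, 453, 488, 489 and 465 CPM after sham surgery and at 587, 501, 527, 483 and 575 CPM after Glenn surgery on the control diet. Lamb2 on the deficient diet stood at 461, 478, 401, 482 and 429 CPM after sham surgery and at 584, 469.9, 665, 559 and 540.4 CPM after Glenn surgery. Lamb2 on the excess diet stood at 357, 428, 475, 497 and 461 CPM after sham surgery and at 442, 516, 442, 540.3 and 538 CPM after Glenn surgery. Groups overlapped on every diet. The averaged change was small (log2 change 0.22, SE 0.053, adjusted p 0.000885), and within diets it passed the test on the deficient diet (0.32). That call was lost within series A and among RT1-CE16-low libraries (0.29 in both), which are the same libraries on this diet. On the control diet the change was 0.18 (SE 0.091, adjusted p 0.161) and on the excess diet 0.18 (SE 0.10, adjusted p 0.232).

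Lamb1 (ENSRNOG00000005678), the beta chain of many embryonic and vascular laminins, rose on average (log2 change 0.69, SE 0.087, adjusted p 1.39e-07). Its sham libraries ran from 15.2 to 39.3 (median 29.4) CPM and its Glenn libraries from 34.6 to 63.4 (median 46.95) CPM. The change passed the test on the deficient (0.78) and excess diets (0.99), where groups did not overlap, and was 0.30 (SE 0.15, adjusted p 0.148) on the control diet. The test of surgery by diet gave Lamb1 an unadjusted p of 0.00995 and an adjusted p of 0.733. Lamb3, the beta chain of the epithelial laminin with Lama3, had an averaged change of 0.04 (SE 0.089, adjusted p 0.728), with 63.3 to 121 CPM after sham and 58.2 to 118 CPM after Glenn surgery.

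Among the gamma chains, Lamc1 (ENSRNOG00000002680), the chain of most laminins, stood at 163, 162, 159.8, 154 and 158 CPM after sham surgery and at 468, 277, 292, 293 and 284 CPM after Glenn surgery on the control diet. Lamc1 on the deficient diet stood at 153, 154, 137, 165 and 158 CPM after sham surgery and at 319.5, 376, 453, 392 and 382 CPM after Glenn surgery. Lamc1 on the excess diet stood at 117, 147, 134, 151 and 156 CPM after sham surgery and at 306, 352, 289, 337 and 371 CPM after Glenn surgery. Sham libraries formed a narrow band, and every Glenn library lay above it; Glenn control replicate 1 was far above the rest of its group. The rise was 2.28-fold averaged over diets (log2 change 1.19, SE 0.067, adjusted p 6.99e-15).

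Lamc3 (ENSRNOG00000059507), another gamma chain, ranged over 0.463 to 4.54 (median 2.68) CPM after sham and 1.54 to 18.3 (median 3.35) CPM after Glenn surgery, and had an averaged change of 1.00 (SE 0.31, adjusted p 0.00916). Its highest value was in Glenn deficient replicate 2. It did not separate the 15 Glenn from the 15 sham libraries.

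**Figure D2:**
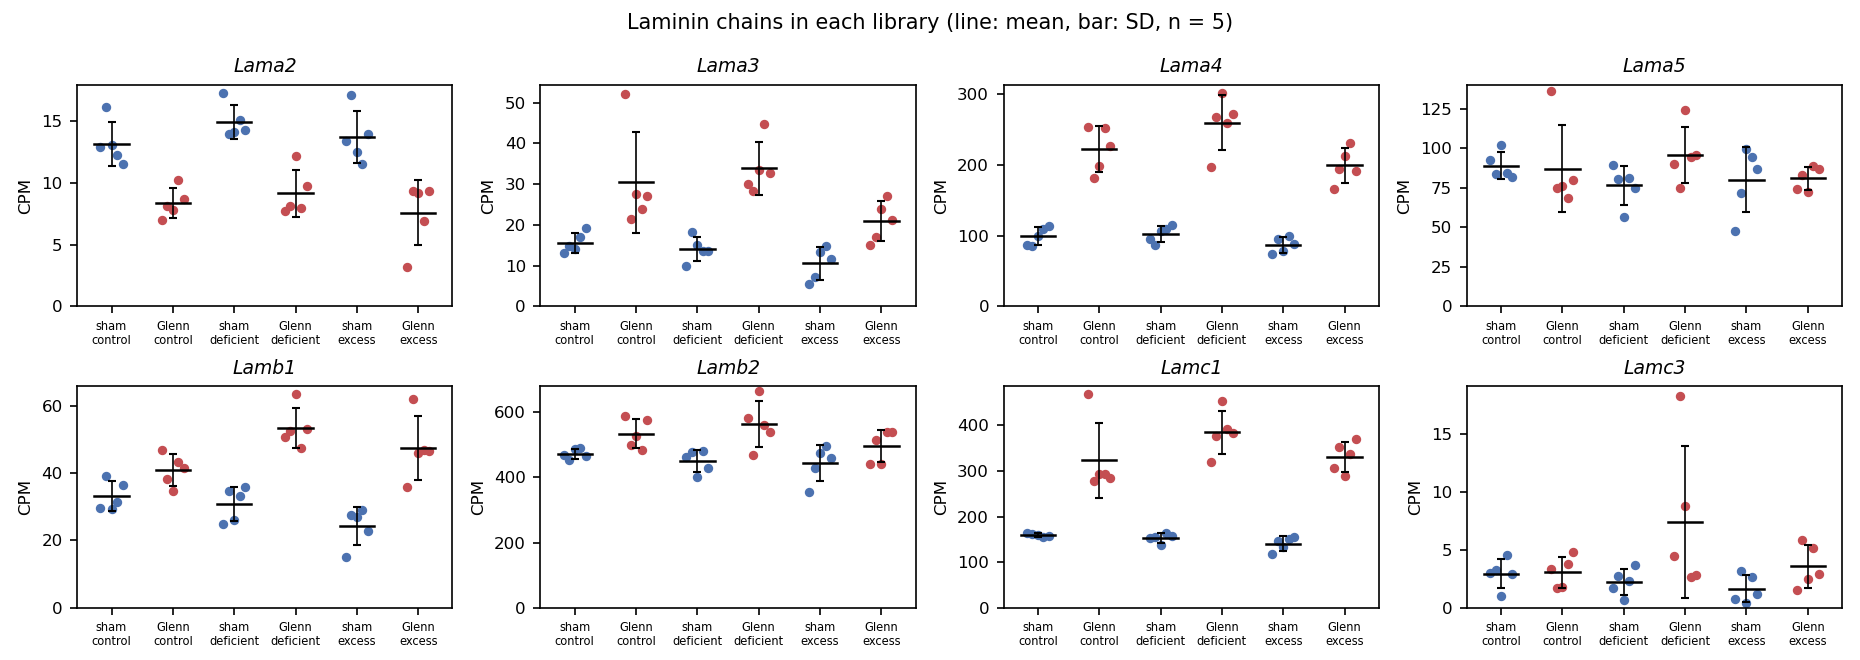
CPM (y axes, from 0) of 8 laminin chains in each of the 30 libraries by group (x axes), with points for libraries, lines for means and bars for SD. Lama4 and Lamc1 are higher in every Glenn library than in any sham library, Lama2 is lower within each diet, and Lama5 overlaps throughout.

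Markers of other cell types also differed between the operations. All 10 mural markers (such as Pdgfrb and Acta2) rose on average, and their summed level was 181 to 375 CPM after sham and 551 to 1840 CPM after Glenn surgery, beside Lama4, Lamc1, Lamb1 and Lamc3. Of 6 alveolar type 1 markers, 5 rose and 1, Hopx, fell on average. By diet 3 passed the test upward on the control and 5 on the deficient diet. On the excess diet 0 passed upward and 1 downward, with a median log2 change of 0.57 over the 6 type 1 markers. The sum was 649 to 1087 CPM after sham and 754 to 2037 CPM after Glenn surgery, beside Lama3. The highest type 1 sum was in Glenn control replicate 1, which also had the highest Lama3 and Lamc1 values. Its mural sum of 580 CPM was near the low end of the Glenn range. Glenn deficient replicate 2, with the highest Lamc3 value, had a mural sum of 722 CPM. All 7 type 2 markers fell, and 6 of 8 fibroblast markers rose. Among endothelial subsets, 1 of 6 aerocyte markers rose and 4 fell on average, the same counts as within each diet. General capillary markers fell in 4 of 5 cases on average. Those passing downward numbered 4 with control, 1 with deficient and 1 with excess feeding (median log2 change -0.47, -0.26 and 0.06). The 8 general endothelial markers gave 2 rises and 5 falls on average. Of 7 arterial markers 5 rose and 2 fell, and of 5 venous markers 1 rose and 3 fell. The part of these cells in the laminin changes was not tested.

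The 3 integrin alpha subunits that bind laminin gave 1 rise, 1 fall and 1 without a call on each diet. Itga3 (ENSRNOG00000004276), a receptor for laminins with the alpha3 or alpha5 chain, stood at 220, 241, 285, 252 and 254 CPM after sham surgery and at 184, 169.5, 144, 157 and 156 CPM after Glenn surgery on the control diet. Itga3 on the deficient diet stood at 248, 235, 238, 261 and 267 CPM after sham surgery and at 175, 174, 178, 195 and 166 CPM after Glenn surgery. Itga3 on the excess diet stood at 258, 238, 245, 253 and 261 CPM after sham surgery and at 162, 149, 162, 174 and 155 CPM after Glenn surgery. Every Glenn library was below every sham library. The log2 change was -0.60 (SE 0.040, adjusted p 2.47e-13) averaged over diets, and -0.63, -0.48 and -0.69 on the control, deficient and excess diets.

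Itga6 (ENSRNOG00000001518), the endothelial laminin receptor that also pairs with Itgb4 in hemidesmosomes, ranged over 95.8 to 186 (median 136) CPM after sham and 113 to 171 (median 149.5) CPM after Glenn surgery. Its averaged change was 0.09 (SE 0.076, adjusted p 0.35), and no diet gave a call.

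Itga7 (ENSRNOG00000007905), the laminin receptor of muscle and vascular smooth muscle, rose from low levels. Itga7 stood at 4.26, 3.36, 1.95, 3.71 and 2.55 CPM after sham surgery and at 4.09, 8.21, 8.51, 5.85 and 10.4 CPM after Glenn surgery on the control diet. Itga7 on the deficient diet stood at 2.84, 4.17, 3.36, 2.79 and 3.70 CPM after sham surgery and at 11.9, 6.62, 30.6, 4.003 and 9.64 CPM after Glenn surgery. Itga7 on the excess diet stood at 1.92, 2.50, 2.32, 2.22 and 2.54 CPM after sham surgery and at 5.13, 10.7, 7.49, 12.03 and 15.2 CPM after Glenn surgery. Groups separated on the excess diet and touched on the others, and Glenn deficient replicate 3 was the highest by far. That library also had the highest mural sum, 1840 CPM. The averaged log2 change was 1.78 (SE 0.22, adjusted p 1.23e-07); the part of mural cells in it was not tested.

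Of the 4 alpha subunits that bind collagen, 1 rose and 2 fell on average. Itga2 (ENSRNOG00000058111), also a platelet receptor, fell (log2 change -0.72, SE 0.13, adjusted p 3.69e-05), with 5.23 to 13.9 CPM after sham and 3.81 to 8.25 CPM after Glenn surgery. Itga11 (ENSRNOG00000006723), a fibroblast receptor for fibrillar collagen, fell as well (log2 change -0.62, SE 0.15, adjusted p 0.00122), with 5.56 to 14.7 CPM after sham and 2.68 to 10.1 CPM after Glenn surgery. Both genes overlapped between the operations. Itga10 (ENSRNOG00000021217) passed the test upward (log2 change 2.89, SE 0.69, adjusted p 0.000992) on few reads, at 0 to 0.218 CPM after sham and 0 to 1.73 CPM after Glenn surgery, so the size of its change is poorly set. Itga1 (ENSRNOG00000053550), the most counted of the 4, had a change of -0.25 (SE 0.11, adjusted p 0.0692). It passed the test without Glenn control replicate 1 (-0.33) or Glenn deficient replicate 5 (-0.27), and in 5 of 12 other alternatives, from -0.26 with no series term to -0.32 with limma voom.

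Itga5 (ENSRNOG00000057451), the fibronectin receptor of endothelium, had the most estimated counts of the alpha subunits. Itga5 stood at 404, 391, 438, 374 and 413 CPM after sham surgery and at 469, 343, 318, 305 and 278 CPM after Glenn surgery on the control diet. Itga5 on the deficient diet stood at 435, 331, 321, 345 and 381 CPM after sham surgery and at 418, 426, 461, 381 and 372 CPM after Glenn surgery. Itga5 on the excess diet stood at 378, 427, 369, 356 and 404 CPM after sham surgery and at 584, 402, 334, 379 and 483 CPM after Glenn surgery. Groups overlapped on every diet, and Glenn control replicate 1 was the highest of its group. The log2 changes were -0.24 (SE 0.12, adjusted p 0.142), 0.14 (SE 0.12, adjusted p 0.428) and 0.30 (SE 0.13, adjusted p 0.101) on the 3 diets in that order, and none passed the test. Itgav (ENSRNOG00000004912), the alpha subunit of vitronectin receptors, ranged over 52.6 to 82.6 (median 71.98) CPM after sham and 56.5 to 88.8 (median 71.7) CPM after Glenn surgery, with an averaged change of 0.01 (SE 0.057, adjusted p 0.868).

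Itga8 (ENSRNOG00000016538), a receptor of smooth muscle and mesenchyme for nephronectin, rose on average (log2 change 1.10, SE 0.19, adjusted p 2.63e-05). It ranged over 8.57 to 38.1 (median 20.6) CPM after sham and 23.5 to 85.3 (median 40.7) CPM after Glenn surgery, and groups separated on the deficient and excess diets. Its rise stood beside that of the mural markers given above. Itga2b (ENSRNOG00000022071), the platelet fibrinogen receptor, fell (log2 change -0.84, SE 0.20, adjusted p 0.00101), with 11.6 to 46.7 (median 23.2) CPM after sham and 8.73 to 34.1 (median 12.6) CPM after Glenn surgery. Its partner Itgb3 (ENSRNOG00000048449) fell too, with 6.10 to 21.8 (median 9.56) CPM after sham and 5.56 to 12.7 (median 7.43) CPM after Glenn surgery (log2 change -0.49, SE 0.16, adjusted p 0.0134). Of 8 platelet markers 7 fell on average, and 0, 2 and 5 on the control, deficient and excess diets. Their sums were 21.5 to 75.9 CPM after sham and 17.5 to 75.3 CPM after Glenn surgery. The part of platelets in both falls was not tested. The Itgb3 change did not pass the test within series A (-0.23), among RT1-CE16-low libraries (-0.05) or without the 2 libraries named above (-0.38).

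Itga4 (ENSRNOG00000004861), which with Itgb1 binds Vcam1 and fibronectin, rose on the 3 diets. Itga4 stood at 3.48, 3.67, 8.19, 4.83 and 5.78 CPM after sham surgery and at 24.1, 14.9, 22.2, 19.03 and 17.8 CPM after Glenn surgery on the control diet. Itga4 on the deficient diet stood at 6.82, 4.08, 8.66, 4.69 and 7.73 CPM after sham surgery and at 15.2, 25.3, 22.1, 27.1 and 18.4 CPM after Glenn surgery. Itga4 on the excess diet stood at 4.85, 7.86, 5.45, 4.05 and 7.14 CPM after sham surgery and at 9.14, 14.6, 21.5, 17.3 and 15.7 CPM after Glenn surgery. Every Glenn library exceeded every sham library, the closest values being 8.66 CPM in a sham deficient and 9.14 CPM in a Glenn excess library. The averaged rise was 3.13-fold (log2 change 1.65, SE 0.14, adjusted p 7e-11), with 1.92, 1.85 and 1.17 on the control, deficient and excess diets. Leukocytes carry this subunit as well. Of 8 tested leukocyte markers 1 rose and 2 fell on average, and Ptprc was 0.569 to 18.9 CPM after sham and 0.890 to 8.69 CPM after Glenn surgery. The part of leukocytes or of other cell types in the Itga4 rise was not tested.

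Itga9 (ENSRNOG00000043167), a close relative of Itga4 known for its role in lymphatic valves, rose as well. Itga9 stood at 83.5, 90.3, 86.1, 80.2 and 82.9 CPM after sham surgery and at 151, 109, 109, 105 and 126 CPM after Glenn surgery on the control diet. Itga9 on the deficient diet stood at 98.5, 89.2, 86.9, 77.04 and 77.2 CPM after sham surgery and at 129, 134, 178, 129 and 157 CPM after Glenn surgery. Itga9 on the excess diet stood at 81.8, 89.9, 66.3, 78.3 and 76.05 CPM after sham surgery and at 104, 113, 141, 153 and 130.4 CPM after Glenn surgery. The lowest Glenn library was above the highest sham library. The averaged log2 change was 0.65 (SE 0.066, adjusted p 1.73e-09). All 6 lymphatic markers rose on average, with sums of 1090 to 2004 CPM after sham and 2468 to 5101 CPM after Glenn surgery, which do not overlap either; the part of lymphatic cells in the Itga9 rise was not tested.

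Itgae (ENSRNOG00000046639), the partner of Itgb7 on lymphocytes in epithelium, rose (log2 change 0.64, SE 0.089, adjusted p 6.15e-07), with 2.48 to 4.27 CPM after sham and 3.28 to 6.70 CPM after Glenn surgery. Itgal (ENSRNOG00000017980), the alpha subunit of the lymphocyte receptor for Icam1, had a change of 0.31 (SE 0.29, adjusted p 0.397), on 0.496 to 7.73 CPM after sham and 1.12 to 3.59 CPM after Glenn surgery. Without sham control replicate 3, in which it reached 7.73 CPM, that change was 0.69 and passed the test, as it did among RT1-CE16-low libraries (1.09) and without the 2 libraries named above (0.71). Itgax and the tested Itgad row, subunits of myeloid cells, ranged over 0.624 to 3.11 and 0 to 1.05 CPM in the 30 libraries and had changes of -0.08 (SE 0.22, adjusted p 0.793) and -0.79 (SE 0.72, adjusted p 0.383). Their beta partner Itgb2 (ENSRNOG00000001224) ranged over 0.530 to 14.6 CPM and had a change of -0.55 (SE 0.40, adjusted p 0.267). Among RT1-CE16-low libraries these 3 changes had the opposite sign (0.49 for Itgax, 2.55 for Itgad and 0.72 for Itgb2), also without passing the test. Itgb7 (ENSRNOG00000012208) ranged over 0 to 3.92 CPM and had a change of -1.01 (SE 0.50, adjusted p 0.101); without Glenn control replicate 4 it was -1.93 and passed the test, and it passed in 4 of 12 other alternatives, from -1.14 with an RT1-CE16 term to -1.32 among RT1-CE16-low libraries. Sham control replicate 3 held the highest Itgal, Itgax, Itgb2 and Itgb7 values as well as the most Ptprc, and the part of leukocytes in these changes was not tested.

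Itgb1 (ENSRNOG00000010966), the beta subunit shared by most matrix receptors, had more estimated counts than any other member. Itgb1 stood at 1009, 985, 1126, 963 and 1019 CPM after sham surgery and at 1049, 876, 844, 819 and 863 CPM after Glenn surgery on the control diet. Itgb1 on the deficient diet stood at 979, 976, 1133, 1001 and 1019 CPM after sham surgery and at 1079, 950.4, 1204, 948 and 945 CPM after Glenn surgery. Itgb1 on the excess diet stood at 1004, 1070.4, 965, 923 and 1055 CPM after sham surgery and at 1108, 1027, 999, 995 and 929 CPM after Glenn surgery. Groups overlapped on every diet. The log2 changes were -0.20 (SE 0.077, adjusted p 0.0612), -0.01 (SE 0.079, adjusted p 0.93) and 0.05 (SE 0.086, adjusted p 0.718), and none passed the test.

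Itgb5 (ENSRNOG00000001795), a partner of Itgav in vitronectin binding, fell on the 3 diets. Itgb5 stood at 49.5, 60.4, 76.7, 72.2 and 74.1 CPM after sham surgery and at 36.5, 40.2, 36.8, 41.2 and 43.7 CPM after Glenn surgery on the control diet. Itgb5 on the deficient diet stood at 49.4, 59.8, 77.7, 82.98 and 71.5 CPM after sham surgery and at 46.6, 45.4, 49.6, 36.6 and 38.6 CPM after Glenn surgery. Itgb5 on the excess diet stood at 81.5, 58.6, 63.5, 64.3 and 66.95 CPM after sham surgery and at 27.4, 40.9, 38.4, 43.7 and 41.04 CPM after Glenn surgery. Groups separated on the control and excess diets and overlapped by 1 Glenn library on the deficient diet. The averaged log2 change was -0.75 (SE 0.077, adjusted p 3.33e-09). On the deficient diet the change of -0.61 shrank to -0.21 within series A and among RT1-CE16-low libraries, where it did not pass the test. These are the same libraries on that diet.

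Itgb4 (ENSRNOG00000005580), the hemidesmosome partner of Itga6, stood at 57.4, 75.9, 86.03, 86.8 and 96.6 CPM after sham surgery and at 109, 98.05, 95.6, 85.4 and 113 CPM after Glenn surgery on the control diet. Itgb4 on the deficient diet stood at 64.8, 73.8, 64.8, 71.6 and 76.1 CPM after sham surgery and at 136, 129, 141, 97.9 and 111 CPM after Glenn surgery. Itgb4 on the excess diet stood at 48.2, 64.1, 59.4, 70.4 and 55.3 CPM after sham surgery and at 147, 109, 95.1, 122 and 146 CPM after Glenn surgery. Groups separated on the deficient and excess diets and overlapped on the control diet. The change was 0.31 (SE 0.13, adjusted p 0.0695), 0.77 (SE 0.13, adjusted p 4.12e-05) and 1.14 (SE 0.14, adjusted p 5.01e-07) on the control, deficient and excess diets. The test of surgery by diet gave the smallest p of any member (unadjusted 0.000559), which did not pass after adjustment over all genes (0.279). Itgb6 (ENSRNOG00000008346), the epithelial partner of Itgav that activates latent TGF-beta, rose on average (log2 change 0.48, SE 0.12, adjusted p 0.00211), with 19.4 to 44.7 (median 32.7) CPM after sham and 23.3 to 85.4 (median 50.96) CPM after Glenn surgery. That change was 0.24 within series A and 0.28 among RT1-CE16-low libraries, without a call. The alveolar type 1 markers rose beside them on average and on the deficient diet (5 of 6), but 0 of 6 rose on the excess diet, where the Itgb4 change was largest and Itgb6 did not pass the test; their part in both rises was not tested. Itgb8 (ENSRNOG00000006569), another partner of Itgav that activates latent TGF-beta, ranged over 2.23 to 7.99 CPM and had an averaged change of -0.22 (SE 0.15, adjusted p 0.229).

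**Figure D3:**
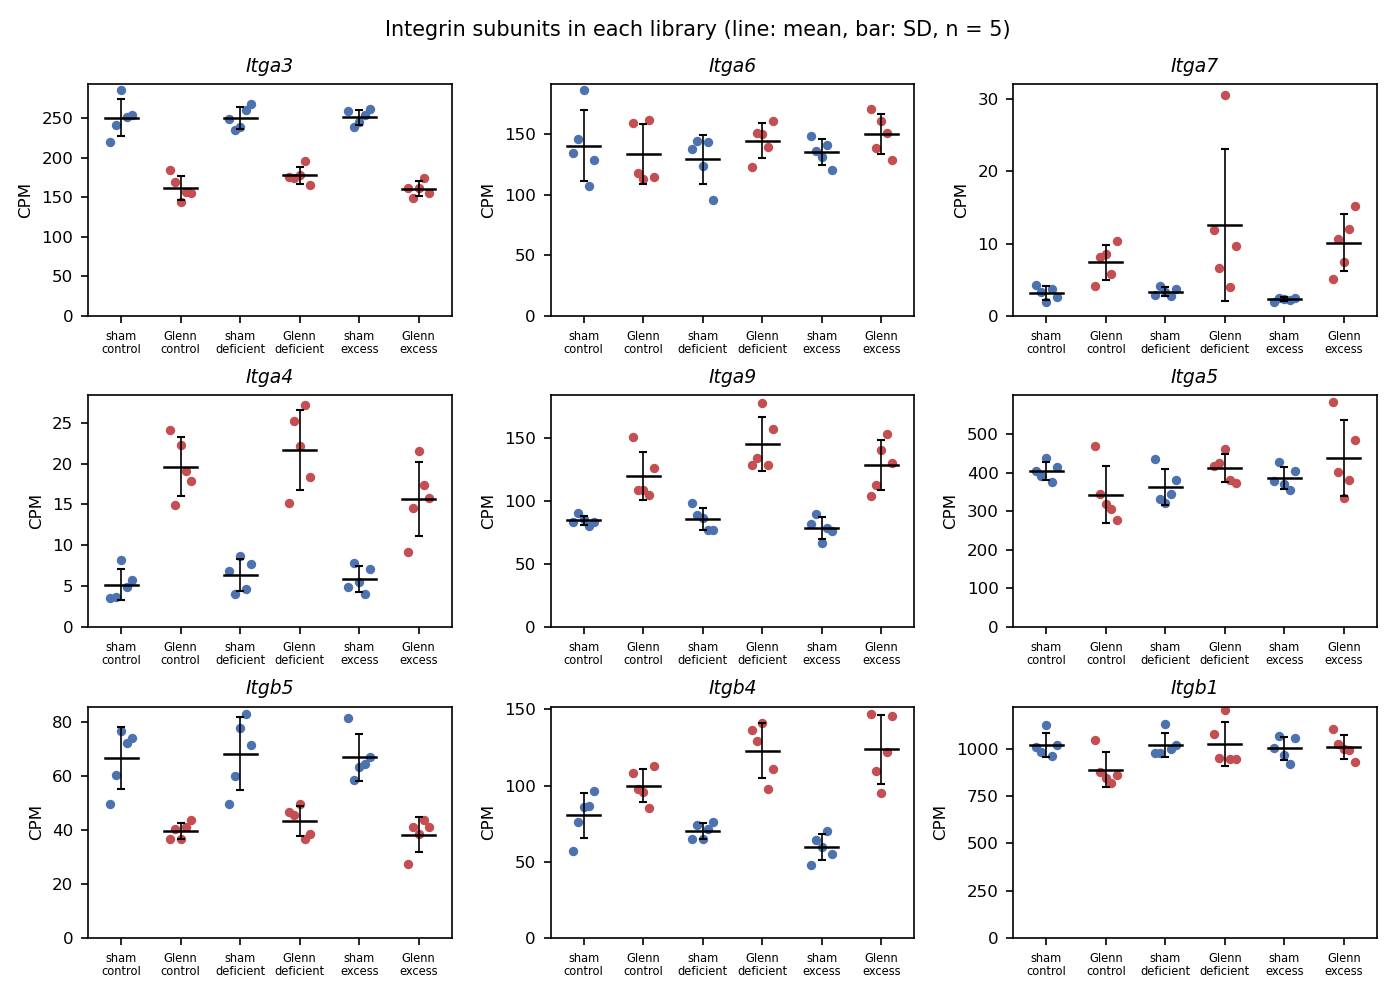
CPM (y axes, from 0) of 9 integrin subunits in each of the 30 libraries by group (x axes), with points for libraries, lines for means and bars for SD. Itga3 is lower and Itga4 and Itga9 are higher in every Glenn library than in any sham library, while Itga6, Itga5 and Itgb1 overlap.

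**Figure D4:**
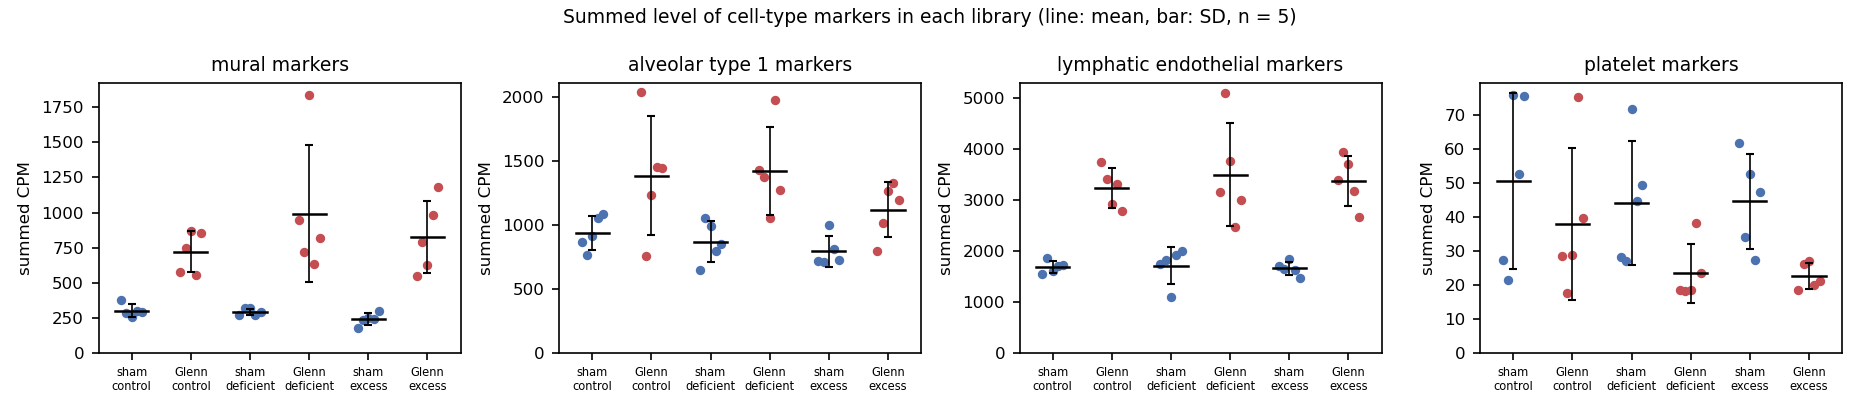
Summed CPM (y axes, from 0) of the mural, alveolar type 1, lymphatic endothelial and platelet marker lists in each library by group (x axes), with points for libraries, lines for means and bars for SD. Mural sums of 551 to 1840 CPM and lymphatic sums of 2468 to 5101 CPM after Glenn surgery lie above all sham sums, while type 1 and platelet sums overlap.

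Ratios of estimated counts within a library do not depend on the scaling between libraries. They do depend on gene length, which the files do not give, so they are compared between groups and not read as relative amounts of protein or transcript. Lama4 to Lama5 was 0.780 to 1.89 (median 1.08) in the 15 sham libraries and 1.86 to 3.68 (median 2.59) in the 15 Glenn libraries; a single pair of values overlapped. Itga3 to Itga6 was 1.53 to 2.79 (median 1.81) after sham and 0.951 to 1.44 (median 1.16) after Glenn surgery, with no overlap. Itga4 to Itga5 was 0.00863 to 0.0270 (median 0.0140) and 0.0157 to 0.0712 (median 0.0493). Lamb1 to Lamb2 was 0.0427 to 0.0866 (median 0.0642) and 0.0656 to 0.120 (median 0.0866); the groups overlapped on the control diet and separated on the other two. Itgb5 to Itgb1 was 0.0491 to 0.0829 (median 0.0681) and 0.0248 to 0.0506 (median 0.0432). A ratio shows unequal change of its members and not which of them changed.

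**Figure D5:**
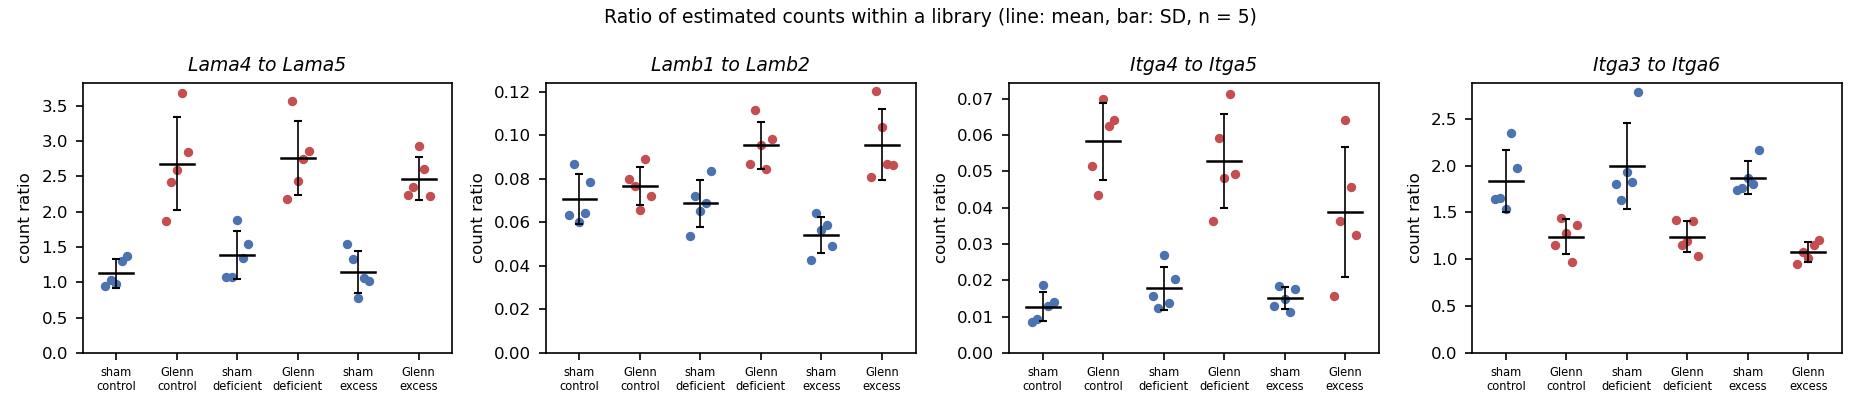
Ratio of estimated counts (y axes, from 0) of 4 member pairs in each library by group (x axes), with points for libraries, lines for means and bars for SD. Lama4 to Lama5 has a median of 1.08 after sham and 2.59 after Glenn surgery, and Itga3 to Itga6 of 1.81 and 1.16.

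Tests between diets within an operation called 0 or 1 members. After sham surgery, 0 of 36 members differed between the deficient and control diets, where 0% of all genes did, 0 between excess and control (0.241% of all genes) and 0 between excess and deficient (0.0124%). At an unadjusted p under 0.05 these counts were 3, 6 and 3, against 844, 1788 and 854 of all 16171 genes. After Glenn surgery, 0 members differed between deficient and control (0.00618% of all genes) and 0 between excess and deficient (0% of all genes). The unadjusted counts there were 12 and 8, against 1598 and 837 of all 16171 genes. The surgery-by-diet test called 0 members (0.00618% of all genes). At an unadjusted p under 0.05 it gave 4 members, Itgb4, Lamb1, Itga5 and Itga8, against 925 of all genes. For these 6 tests with a count of 0, DESeq2 called 1 member in the excess-control comparison after sham surgery (1.3% of all genes). It called 1 in the surgery-by-diet test (0.216%) and 0 in the others. Between excess and deficient after Glenn surgery DESeq2 gave an adjusted p for only 27 of the 36 members. Between deficient and control it gave one for 34 after sham and 35 after Glenn surgery. Limma voom called 1 in the excess-control comparison after sham surgery (0.73%) and 0 in the others.

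Between the excess and control diets after Glenn surgery 1 of 36 members differed, where 1.47% of all genes did. At an unadjusted p under 0.05 the count was 12, against 2254 of all 16171 genes. The member past the adjusted threshold was Itgbl1 (ENSRNOG00000004516), the soluble integrin-beta-like protein. Itgbl1 stood at 17.4, 24.9, 13.8, 37.2 and 29.8 CPM in Glenn control and 8.68, 9.95, 27.04, 25.8 and 19.6 CPM in Glenn excess libraries. In Glenn deficient libraries Itgbl1 stood at 14.5, 15.1, 18.4, 28.2 and 33.7 CPM. The sham groups had 17.6, 17.05, 19.1, 26.8 and 26.9 CPM on the control, 14.5, 22.9, 27.8, 27.8 and 23.4 CPM on the deficient and 12.2, 11.8, 12.3, 11.4 and 12.8 CPM on the excess diet. Glenn control and Glenn excess overlapped, and sham excess lay below the other sham groups.

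The fitted excess-against-control change of Itgbl1 after Glenn surgery was -1.12 (SE 0.24, adjusted p 0.0159). The call was lost without Glenn control replicate 5 (-1.04), Glenn excess replicate 1 (-0.97) or Glenn excess replicate 2 (-1.04), and with no series term (-0.44), a replicate block (-0.90) or an RT1-CE16 term (-0.66). Itgbl1 was also the only member of the 36 that differed between the library series (0.93 higher in B on the log2 scale, adjusted p 0.00827), where 1.64% of all genes did. With RT1-CE16 level and sex as terms, 5 members followed the RT1-CE16 level (7.12% of all genes). Series B libraries are all RT1-CE16-high, so the series and RT1-CE16 differences are not independent. Among them Lama4, Itgbl1, Itga2b and Itgb3 were lower in RT1-CE16-low libraries, by 0.22 for Lama4 and 0.82 for Itgbl1 on the log2 scale. No member followed sex (0.0804% of all genes).

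Other diet differences after Glenn surgery did not pass the test. Itga5 had an excess-against-control change of 0.47 (SE 0.13, adjusted p 0.0586). Between the excess and deficient diets Lama4 had a change of -0.42 (SE 0.11, adjusted p 0.406). Without Glenn control replicate 1, 2 members passed between deficient and control and 3 between excess and control; the latter count was 3 without Glenn excess replicate 3 and 2 without Glenn control replicate 2. After sham surgery, 1 member passed between excess and control without sham control replicate 1. Shares of all genes in these fits are not given here, so the counts are not read as a result about the members.

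The matrix partners of laminin were counted from a list of 22 basement membrane genes. Averaged over diets, 16 rose and 2 fell, with a median log2 change of 0.75. The within-diet counts were 12, 14 and 10 higher and 0 lower on the control, deficient and excess diets. Of all genes 23.4% were higher and 24.7% lower on average. Within the diets 11.8%, 13.7% and 11.6% of all genes were higher and 13.1%, 13.7% and 10.4% lower. Nid2, a nidogen that bridges laminin and collagen IV, rose from 29.5 ± 2.15 to 91.8 ± 18.3 CPM (mean ± SD over 15 libraries an operation). Its fitted change was 1.61 (SE 0.066, adjusted p 8e-18). Col18a1, the collagen from which endostatin is cut, rose from 32.9 ± 9.12 to 357 ± 115 CPM (fitted log2 change 3.44, SE 0.16, adjusted p 1.53e-15). Agrn, a heparan sulfate proteoglycan that binds laminin, fell (log2 change -0.24, SE 0.064, adjusted p 0.00306), as did Col4a3, a collagen IV chain of the alveolar and glomerular membranes (log2 change -0.38, SE 0.12, adjusted p 0.00937).

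Of 11 other laminin receptors and membrane proteins that associate with integrins, 3 rose and 4 fell on average. Within the control, deficient and excess diets 2, 2 and 2 rose and 3, 2 and 2 fell. On average 63.6% of this list changed, against 48.2% of all genes. By diet 45.5%, 36.4% and 36.4% changed, against 24.9%, 27.4% and 21.9% of all genes. The tetraspanin Cd63 rose (log2 change 0.38, SE 0.054, adjusted p 1.08e-06) and so did the syndecan Sdc2 (log2 change 0.45, SE 0.079, adjusted p 2.75e-05). The tetraspanin Cd9 fell from 2247 ± 213 to 1198 ± 107 CPM (fitted log2 change -0.91, SE 0.054, adjusted p 2.88e-14), and the thrombospondin receptor Cd47 fell (log2 change -0.33, SE 0.031, adjusted p 3.42e-10). The laminin receptor dystroglycan, Dag1, was the remaining riser (log2 change 0.18, SE 0.064, adjusted p 0.0186), and the Lutheran laminin receptor Bcam had a change of 0.09 (SE 0.042, adjusted p 0.0757); these 2 were chosen after their values were seen.

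Of 23 tested other integrin ligands, 15 rose and 5 fell on average, with a median log2 change of 0.63. By diet, in the same order, 9, 12 and 13 rose and 5, 3 and 2 fell. On average 87% of the ligands changed, against 48.2% of all genes. By diet 60.9%, 65.2% and 65.2% changed, against 24.9%, 27.4% and 21.9% of all genes. Thbs1, thrombospondin-1, rose from 458 ± 79.3 to 1033 ± 199 CPM (fitted log2 change 1.23, SE 0.076, adjusted p 5.72e-14), and the short-chain collagen Col8a1 rose (log2 change 2.26, SE 0.16, adjusted p 9.1e-12). Icam2, an endothelial ligand of leukocyte integrins, fell from 535 ± 49.2 to 291 ± 38.9 CPM (fitted log2 change -0.86, SE 0.054, adjusted p 5.72e-14), and vitronectin, Vtn, fell from low levels (log2 change -1.01, SE 0.14, adjusted p 7.76e-07). Fibronectin, Fn1, the ligand of Itga5 and Itga4, rose (log2 change 1.73, SE 0.16, adjusted p 5.73e-10), and Vcam1, the other ligand of Itga4, fell (log2 change -0.35, SE 0.10, adjusted p 0.00628); these 2 were chosen after their values were seen. Between the excess and control diets after Glenn surgery, 2 ligands passed the test upward (Vwf 0.72, Ltbp1 0.84) and 1 basement membrane gene downward (Col4a6 -0.72). Of all genes 1.47% passed there.

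The intracellular adaptors of integrins split in direction: of 39 tested rows 11 rose and 12 fell, with a median log2 change of 0.04. By diet, 7, 9 and 8 rose and 8, 6 and 3 fell. On average 59% of the adaptor rows changed, against 48.2% of all genes. By diet 38.5%, 38.5% and 28.2% changed, against 24.9%, 27.4% and 21.9% of all genes. The actin cross-linkers Flna (log2 change 1.06, SE 0.089, adjusted p 6.89e-11) and Actn1 (log2 change 0.80, SE 0.070, adjusted p 1.24e-10) rose. Fermt3, the kindlin of blood cells, fell (log2 change -0.84, SE 0.094, adjusted p 1.66e-08), and Parvb, a parvin that links integrin-linked kinase to actin, fell (log2 change -0.55, SE 0.064, adjusted p 3.07e-08). Talin, Tln1, whose head domain activates integrins, had a change of 0.01 (SE 0.060, adjusted p 0.865); it was chosen after its values were seen. The lists share the averaged contrast with the members, and no test set them against other genes, of which 48.2% changed.

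Some within-diet calls of the 9 members that changed on every diet were lost in fits with fewer libraries, with their direction kept. Among RT1-CE16-low libraries on the control diet, Itga7 (0.88), Itga9 (0.51), Lama2 (-0.91) and Lama3 (1.28) did not pass the test. Within series A, and among RT1-CE16-low libraries, Lama2 (-0.74 in both) and Lama3 (1.13 in both) did not pass on the deficient diet, where these are the same libraries. Averaged over diets, Lamb2 (0.22) and Lamc3 (0.98) did not pass among RT1-CE16-low libraries.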

How the data were processed

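Expression was measured by RNA sequencing of 30 libraries of sorted rat lung cells. The authors deposited 1 table of estimated counts per gene for all libraries, per the file headers; the submitters' processing notes name FastQC, Trim Galore, STAR, Picard, Salmon and the build mRatBN7.2 (rn7), without versions, and the annotation release, settings and strandedness are not given in the sources used here. A PureLink kit gave the RNA and a SMART-Seq low-input kit the cDNA, per the labels' protocols. Salmon shares reads between similar genes, so 13.6% of the values were not whole.

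The estimated counts were rounded. In R 4.3.3, edgeR 4.0.16 kept 16171 genes (filterByExpr, minimum count 10, minimum total 15) and scaled by TMM (factors 0.938 to 1.06). A single quasi-likelihood fit (robust, older dispersion method) held the 6 groups and the library series, with 23 residual degrees of freedom. Adjusted p-values are Benjamini-Hochberg over all genes, and SE is the absolute log2 change over the root of the F statistic. The averaged contrast is the mean of the 3 within-diet differences. Library values are CPM on TMM-scaled totals.

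Samples were grouped by their labelled treatment. The members and lists were chosen with earlier results of these data known. Members were described library by library where they had a mean of at least 1 CPM and changed alike on all 3 diets, passed a diet test, or were among the 3 most counted of their family; Itgb4 was added after its values were seen. From each partner list the text names, by smallest adjusted p in the averaged contrast, 2 risers and 2 fallers with a mean of at least 1 CPM. Of the integrin adaptor list, 38 of 39 names were in the table, Rap1b was not found and Rap1a had 2 rows.

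The alternatives were DESeq2 1.42.0 as the test or for its size factors only, limma 3.58.1 (voom with quality weights), a fit of series A or one that ignores the series, no filter, only the groups compared, a replicate block, RT1-CE16 terms, RT1-CE16-low libraries alone (high means above 100 CPM) and leaving out each library. A newer dispersion method and leaving out 2 libraries together were added after seeing the data. The steps were tested on simulated data. Within groups, 60 library pairs had a chi-square per degree of freedom of 20.5 to 122.3, so none was counted as a duplicate. Sex was called from Ddx3y (male above 10 CPM). Promoters came from RefSeq (GRCr8), matched by symbol. No genome of the files' build was used, so members carry identifiers and no coordinates of that build. Figures were drawn with matplotlib 3.10.9. Values of 1 tested member, which the counts include, are not reported here.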

Additional observations from a re-analysis of the deposited data

Results flagged for a closer look

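Single libraries lay far from the other 4 of their group in 9 of 198 sets, over the 33 members with a mean of at least 1 CPM; chance gives about 9.9. The value in parentheses is the distance to the closest other library divided by the range of the 5, and 0.71 is its limit. Glenn control replicate 1 accounted for 5 of the 9. In it Lamc1 was 468 CPM against 277 to 293 in the others (0.916), Lama5 136 against 68.7 to 80.0 (0.833), Lama3 52.1 against 21.4 to 27.6 (0.797), Itgb1 1049 against 819 to 876 (0.75), and Itgb8 3.56 against 6.58 to 7.69 (0.731). Sham control replicate 3 held 7.73 CPM of Itgal against 0.707 to 1.60 (0.872) and 14.6 CPM of Itgb2 against 0.530 to 2.94 (0.828). Glenn control replicate 4 held 6.18 CPM of Itgb2 against 1.06 to 2.36 (0.746). Sham deficient replicate 3 held 1133 CPM of Itgb1 against 976 to 1019 (0.727).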

How the results depend on the processing

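The log2 changes followed were those of the 36 members averaged over diets, the within-diet changes that passed the test and that of Itgbl1; 0 changes that passed the test took the opposite sign under the alternatives run. Averaged changes that did not pass did so for Itga5, Itgad, Itgav, Itgax, Itgb1, Itgb2, Itgbl1 and Lamb3, without passing there either. Of the values under alternatives other than leaving out 1 library, 970 kept their side of the threshold, 61 lost a call and 11 gained one; leaving out 1 library gave 1506, 40 and 4. The control-diet count of 15 fell to 7 among RT1-CE16-low libraries, where the share of all genes fell from 24.9% to 9.46%. The deficient-diet count of 18 fell to 11 both there and within series A, where the share of all genes fell from 27.4% to 14.5% and 15.2%. These fits hold fewer libraries, and the same ones on the deficient diet. Between excess and control after Glenn surgery, the count of 1 became 0 with no series term, only the groups compared, the replicate block, the RT1-CE16 term, that term with sex, or RT1-CE16-low libraries alone. In those fits 0.0654% to 0.482% of all genes passed. The count became 3 within series A (1.59% of all genes), with limma voom (2.32%) or with the newer dispersion method (1.87%). It became 4 with DESeq2 (3.24%) and 2 without the 2 libraries that stand apart (3.01%). Between excess and control after sham surgery, the count of 0 became 1 with DESeq2 (1.3% of all genes), limma voom (0.73%) or only the groups compared (0.167%). The surgery-by-diet count of 0 became 1 with DESeq2 (0.216%). The cause was not tested. Leaving out 1 library gave 13 to 18 members on the control, 16 to 19 on the deficient and 11 to 14 on the excess diet, and 22 to 23 on average. For diet contrasts it gave 0 to 2 for deficient against control after Glenn surgery. It gave 0 to 1 for excess against control after sham surgery and 0 to 3 after Glenn surgery. The other diet contrasts and the surgery-by-diet test gave 0 to 0. Shares of all genes are not given for the fits that leave out 1 library, so these ranges cannot be set beside them.

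Replicate numbers were not taken as pairs, since the labels give them no shared source and the 75 same-number pairs had correlations of -0.18 to 0.285 (median 0.055, against -0.016 for different numbers). The numbers do track library properties: in all 6 groups replicate 1 is male and replicate 2 female by Ddx3y, and both are series A and RT1-CE16-low. As a hint from the data, 16 of 30 libraries correlated best with their own number, which only a single one of the 5 libraries in each other group carries. With the replicate block the counts were 17, 19, 14 and 23, against 25.9%, 27.9%, 21% and 48.2% of all genes. The fit without it gave 15, 18, 13 and 22. With the block Itga1 passed on average (-0.31), and Itga10 on the deficient diet (2.82) and the diet difference of Itgbl1 (-0.90) did not. Within-diet calls of Itga2, Itga10, Itga11, Itgb3 and Itgb6 were lost without single libraries, and members under 1 CPM rest on few reads, so a missing call there says only that no change was detectable at this depth.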
